A study of Mus musculus with 12 samples.

Results

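The 10 genes described here encode the enzymes that make serine and convert it into glycine, one-carbon units, cystathionine and D-serine, and a pair of carriers that move these amino acids across the plasma membrane. They were chosen by name: Phgdh, Psat1, Psph, Shmt1, Shmt2, Mthfd2, Srr, Slc1a4, Slc7a10 and Cbs. All 10 were found among the 55421 genes of the count table, and all 10 were among the 20015 genes that passed the filter on low counts and were tested. They were measured by RNA-seq in bulk prefrontal tissue of wild-type male C57BL/6 mice aged 10 to 12 weeks, all of which had been trained with 3 pairings of a tone and a 0.7 mA foot shock. The 4 groups of 3 libraries each were PL Dex, PL saline, IL Dex and IL saline, where PL is the prelimbic and IL the infralimbic cortex. Dex mice received 40 µg/kg dexmedetomidine, a sedative agonist of alpha2 adrenergic receptors, into the peritoneum, saline mice received the same volume of normal saline, and the tissue was collected 2 h after training. The series title names an astrocyte pathway of Srebf1 and Phgdh in PL, so the effect of Dex on these genes in PL is the comparison closest to its question.

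Serine is made in the brain mainly by astrocytes, which branch it off glycolysis through phosphoglycerate dehydrogenase, phosphoserine aminotransferase and phosphoserine phosphatase. Serine hydroxymethyltransferases split it into glycine and a one-carbon unit carried by folate, and cystathionine beta-synthase joins it to homocysteine. Serine racemase turns it into D-serine, a co-agonist of the NMDA receptor in the forebrain.

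Library totals ran from 5419187 to 16530596 counts. The first principal component of all tested genes held 35.8% of the variance and set the regions apart, at 17.9 to 48.8 in PL and −38.4 to −29.3 in IL libraries. The PL Dex libraries scored 22.5, 17.9 and 48.8 and the PL saline libraries 19.6, 46.9 and 48.4, so that each PL group held libraries of both kinds, nearer to and farther from IL. Astrocyte and neuron markers were detected in every library. The summed level of 6 markers of striatal neurons, in reads scaled to library size (CPM), was 131 to 238 CPM in PL Dex, 109 to 380 CPM in PL saline, 594 to 947 CPM in IL Dex and 600 to 778 CPM in IL saline. In bulk tissue, fewer cells of a type and less RNA per cell cannot be told apart. Whether each sample of a group is a mouse of its own is not stated, and the p-values below hold for the spread between samples, which may be technical.

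Levels are given in CPM, the reads of a gene scaled to a common library size that takes the composition of each library into account. Phgdh, the enzyme that commits a glycolytic intermediate to serine, stood at 31.6, 26.6 and 21.0 CPM in the PL Dex libraries and at 20.3, 21.8 and 21.1 CPM in the PL saline libraries. In IL its levels were 33.7, 36.5 and 41.8 CPM with Dex and 34.5, 37.5 and 40.9 CPM with saline. Every PL library lay below every IL library, and of the PL Dex libraries the first and the second lay above all PL saline libraries while the third lay among them. Psat1, the aminotransferase of the next step, had 85.3, 61.1 and 74.4 CPM in PL Dex, 74.3, 67.6 and 69.7 CPM in PL saline, 83.4, 72.3 and 83.0 CPM in IL Dex and 77.5, 77.0 and 80.2 CPM in IL saline. Its PL Dex libraries spread more widely than, and on both sides of, those of PL saline. Psph, the phosphatase that releases free serine, had 10.7, 9.58 and 10.2 CPM in PL Dex and 5.01, 10.2 and 7.25 CPM in PL saline, against 12.5, 12.0 and 12.5 CPM in IL Dex and 11.5, 10.7 and 11.5 CPM in IL saline. PL saline library 1 was the lowest of the 12 libraries for this gene, with 33 reads, and the PL saline group had the widest spread, with an SD of 2.6 CPM.

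Of the enzymes that pass one-carbon units to folate, Shmt2, the mitochondrial hydroxymethyltransferase, had 11.3, 14.2 and 12.2 CPM in PL Dex, 8.96, 8.43 and 11.2 CPM in PL saline, 8.91, 10.2 and 13.3 CPM in IL Dex and 11.8, 12.7 and 13.9 CPM in IL saline. The PL Dex libraries lay above those of PL saline, by a narrow margin between PL Dex library 1 and PL saline library 3, whereas the IL groups overlapped. Its cytosolic counterpart Shmt1 was the faintest member, with 12 to 71 reads per library and 1.82 to 6.0 CPM, and its lowest library was again PL saline library 1. Mthfd2, a mitochondrial dehydrogenase and cyclohydrolase of methylene-folate, had 4.49, 4.5 and 4.74 CPM in PL Dex, 4.25, 6.32 and 7.37 CPM in PL saline, 5.88, 6.3 and 6.64 CPM in IL Dex and 7.47, 6.02 and 6.01 CPM in IL saline. PL Dex held its tightest group, below all IL libraries and above PL saline library 1. Cbs, cystathionine beta-synthase, had 23.5, 31.8 and 21.3 CPM in PL Dex, 17.2, 17.5 and 19.0 CPM in PL saline, 31.2, 29.4 and 32.4 CPM in IL Dex and 31.3, 27.2 and 28.9 CPM in IL saline. The PL saline libraries were the 3 lowest of the 12, and PL Dex library 2 was at the level of the IL libraries.

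Srr, serine racemase, had 54.6, 50.1 and 62.8 CPM in PL Dex, 57.4, 62.9 and 54.8 CPM in PL saline, 39.2, 51.0 and 48.1 CPM in IL Dex and 43.1, 45.8 and 45.0 CPM in IL saline. It was the member whose levels in PL lay mostly above those in IL, with PL Dex library 2 and IL Dex library 2 crossing. Slc1a4, a neutral amino acid exchanger that carries serine, had 60.5, 70.8 and 64.8 CPM in PL Dex, 57.9, 56.9 and 58.9 CPM in PL saline, 51.8, 55.2 and 63.1 CPM in IL Dex and 57.3, 59.2 and 64.5 CPM in IL saline. Its PL Dex libraries lay above its PL saline libraries, and the regions overlapped. Slc7a10, a carrier of small neutral amino acids that include D-serine and glycine, had 9.52, 13.1 and 10.7 CPM in PL Dex, 11.4, 11.6 and 14.1 CPM in PL saline, 15.7, 17.6 and 20.8 CPM in IL Dex and 16.9, 19.4 and 17.2 CPM in IL saline. All PL libraries lay below all IL libraries, and within each region the Dex and saline libraries overlapped.

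**Figure D1:**
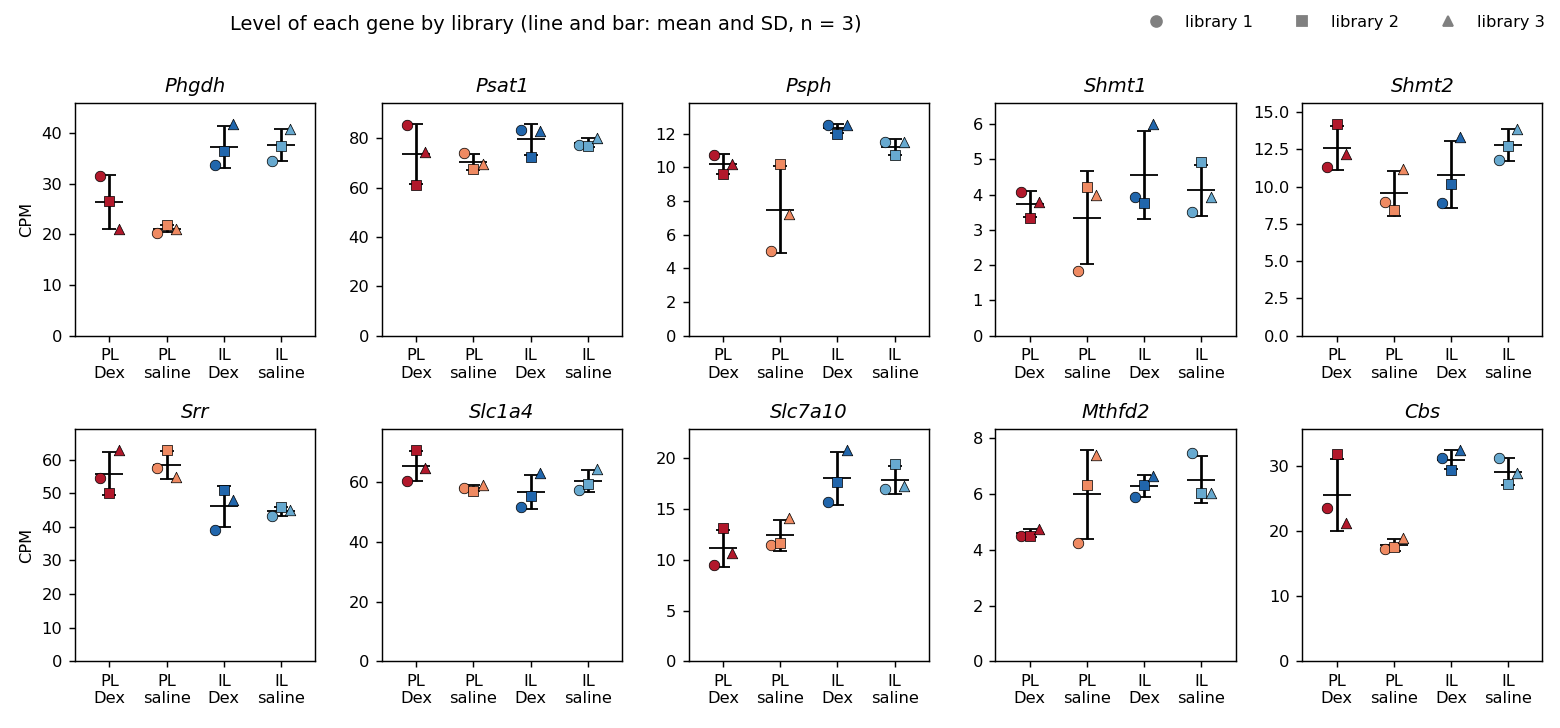
Level of each of the 10 genes in CPM (vertical axes, from 0) in PL Dex, PL saline, IL Dex and IL saline; each point is a library, its shape is the library number, and the line and bar are the mean and SD of 3 libraries. Phgdh and Slc7a10 lay lower in all PL than in all IL libraries, and Srr leaned the other way. PL saline library 1 was the lowest point for Phgdh, Psph, Shmt1, Mthfd2 and Cbs.

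Between genes, levels were compared as CPM per kilobase of exon. Averaged over the 12 libraries, Psat1 had 17.7, Slc1a4 15.3, Phgdh 12.3, Srr 11.2, Slc7a10 7.03, Shmt2 3.68, Cbs 3.46, Psph 2.38, Mthfd2 1.67 and Shmt1 1.01 CPM per kilobase. Psat1 was at the top and Shmt1 at the bottom in each of the 4 groups. Phgdh held the fourth place in PL Dex and in PL saline, at 10.6 ± 2.12 and 8.48 ± 0.29 CPM per kilobase (SD, n = 3), the second in IL Dex at 15.0 ± 1.66 and the third in IL saline at 15.1 ± 1.29. Neighbours in this order had overlapping libraries for Psat1 and Slc1a4, Srr and Phgdh, Slc7a10 and Shmt2, and Shmt2 and Cbs in PL Dex, for Cbs and Psph and Psph and Mthfd2 in PL saline, for Phgdh and Slc1a4, Srr and Slc7a10, Cbs and Shmt2, and Shmt2 and Psph in IL Dex, and for Slc1a4 and Phgdh and Shmt2 and Cbs in IL saline. The libraries of all other neighbours lay apart.

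Phgdh lies at chr3:98313170-98339990, Cbs at chr17:31608894-31637238 and Srr at chr11:74906359-74925948 on the minus strand of GRCm38, and Slc7a10 at chr7:35186385-35201114 on the plus strand. Shown are the 250 bases before the RefSeq start of Phgdh, Cbs, Slc7a10 and Srr, the members past edgeR's test between regions in saline mice. They were taken from RefSeq (GRCm38.p6), run 5′ to 3′ on the strand of the gene, and carry in capitals the matches, on either strand, to 5 short motifs searched in 27025 promoters of the same length. For each gene, members included, the first start that RefSeq lists was counted.
Phgdh (chr3:98339970-98340219, minus strand): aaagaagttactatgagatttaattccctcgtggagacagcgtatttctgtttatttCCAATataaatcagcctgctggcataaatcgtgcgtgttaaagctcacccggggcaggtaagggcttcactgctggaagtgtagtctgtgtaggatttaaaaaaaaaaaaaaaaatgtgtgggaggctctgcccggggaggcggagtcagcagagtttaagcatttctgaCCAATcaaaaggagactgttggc
Cbs (chr17:31637206-31637455, minus strand): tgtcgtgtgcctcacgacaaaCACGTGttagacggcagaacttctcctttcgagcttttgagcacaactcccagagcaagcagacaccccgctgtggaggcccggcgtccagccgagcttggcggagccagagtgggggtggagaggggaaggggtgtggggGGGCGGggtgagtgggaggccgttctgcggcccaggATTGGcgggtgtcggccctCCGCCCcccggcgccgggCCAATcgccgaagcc
Slc7a10 (chr7:35186135-35186384, plus strand): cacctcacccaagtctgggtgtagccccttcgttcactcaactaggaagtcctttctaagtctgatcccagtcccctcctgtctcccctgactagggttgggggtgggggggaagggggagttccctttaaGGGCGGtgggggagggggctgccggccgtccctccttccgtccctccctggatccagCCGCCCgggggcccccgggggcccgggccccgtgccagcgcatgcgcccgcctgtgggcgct
Srr (chr11:74925949-74926198, minus strand): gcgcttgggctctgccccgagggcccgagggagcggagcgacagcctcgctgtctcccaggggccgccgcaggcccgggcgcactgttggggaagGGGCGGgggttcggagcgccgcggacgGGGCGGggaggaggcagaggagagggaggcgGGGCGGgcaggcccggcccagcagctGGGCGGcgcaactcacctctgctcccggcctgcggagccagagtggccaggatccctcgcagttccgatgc
The sterol regulatory element TCACNCCAC, a motif of the Srebf1 family, was in 1.04% of the 27025 promoters and in 0 of the 10 members. The amino acid response motif TGATGNAAT of Atf4 was in 0.825% of promoters and in 0 members, and the E-box CACGTG in 6.05% of promoters and in 1 member, Cbs, 229 bases before its start. The CCAAT box was in 34.5% of promoters and in 7 members (Phgdh, Psat1, Psph, Shmt1, Slc1a4, Mthfd2 and Cbs). The GC box GGGCGG was in 32.9% of promoters and in 6 members (Psph, Shmt1, Srr, Slc1a4, Slc7a10 and Cbs); Psat1 held one only before its other start. Of the sequences shown, Phgdh held CCAAT 193 and 23 bases before its start and no GC box, Srr held 4 GC boxes, Slc7a10 held 2, and Cbs held both motifs 2 times each. No 2 matches in the 4 sequences overlapped, and a match is a run of letters, not a measured site.

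Dex against saline in PL gave no member past the test: 0 of the 10 genes had an adjusted p under 0.05 in edgeR's quasi-likelihood test, where 0.02% of all tested genes did. In this comparison 2 members, Phgdh and Cbs, had an unadjusted p under 0.05, against 13.9% of all tested genes. DESeq2 also called 0 members, with 123 of the 20015 genes called, and gave Shmt1 no adjusted p. Phgdh averaged 26.4 ± 5.28 CPM in PL Dex and 21.1 ± 0.72 CPM in PL saline (SD, n = 3 each). The log2 fold change was 0.32 with an SE of 0.151 and a 95% interval of 0.01 to 0.64, with an unadjusted p of 0.046 and an adjusted p of 0.35. Between PL Dex and PL saline libraries of the same batch number, Phgdh differed by 0.63, 0.28 and −0.01 on the log2 scale. Cbs averaged 25.5 ± 5.53 CPM in PL Dex and 17.9 ± 0.966 CPM in PL saline, which is 0.51 ± 0.153 on the log2 scale (95% interval 0.19 to 0.83) with an unadjusted p of 0.0031 and an adjusted p of 0.205. Its same-number differences were 0.45, 0.86 and 0.16. As all its PL Dex libraries lay above those of PL saline, any pairing gives this direction.

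For the other 8 members the 95% interval in PL included 0. Shmt2 had a log2 fold change of 0.39 (95% interval −0.01 to 0.8), Psph of 0.43 (−0.02 to 0.87) and Slc1a4 of 0.18 (−0.06 to 0.41). Psat1 had 0.06 (−0.18 to 0.31), Shmt1 0.14 (−0.54 to 0.82), Srr −0.07 (−0.32 to 0.19), Slc7a10 −0.16 (−0.54 to 0.22) and Mthfd2 −0.40 (−0.91 to 0.12). The log2 fold change was above 0 for 7 of the 10 members, against 49.7% of all tested genes, and the members' median was 0.16, against −0.002 over all tested genes. The PL Dex and PL saline libraries did not overlap for 3 members, Shmt2, Slc1a4 and Cbs, all higher in PL Dex, where 14.4% of all tested genes did not overlap and 7.57% lay apart in this direction. Leaving out PL Dex library 3 gave Cbs a log2 fold change of 0.63 with an adjusted p of 0.0178, so that 1 member passed, and gave Phgdh 0.46 with an adjusted p of 0.0529. The same omission took the number of all genes that passed to 1528, against 4 with all libraries.

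The libraries also differed in how strongly their levels followed the GC content of the transcript. The slope was taken on each gene's log2 level relative to its average over all libraries. A slope near 0 is thus that of the average library, not an absence of dependence on GC. The slope per 10% GC on the log2 scale was 0.119, 0.0973 and −0.0672 in PL Dex libraries and −0.251, −0.305 and −0.0704 in PL saline libraries; it was −0.0093, 0.045 and 0.19 in IL Dex and 0.0282, 0.0906 and 0.133 in IL saline libraries. Phgdh, Shmt2 and Slc7a10 are the members richest in GC, at 57.2%, 57.4% and 57.0%. With levels corrected in each library by a smooth curve on GC content, Phgdh had a log2 fold change of 0.08 in PL, Shmt2 of 0.17, Slc1a4 of 0.05 and Slc7a10 of −0.39. Cbs, at 49.8% GC, had 0.48 and Psph, at 49.6% GC, had 0.40 under the same correction, and 0 members passed.

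**Figure D2:**
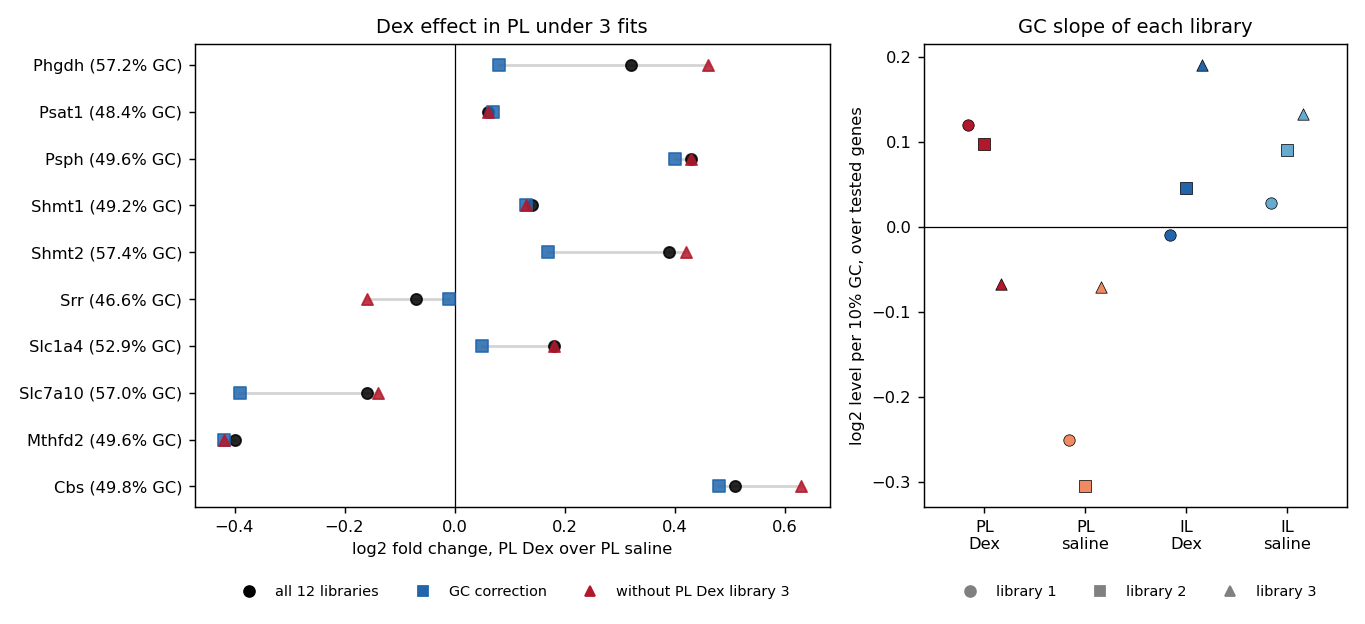
Left, log2 fold change of each gene for PL Dex over PL saline (horizontal axis) with all 12 libraries, after GC correction and without PL Dex library 3; the GC content of each gene stands beside its name. Right, slope on GC content, per 10% GC, of log2 level relative to each gene's average over the 12 libraries. The lowest values, −0.251 and −0.305, are in PL saline libraries 1 and 2. The 3 genes near 57% GC move most under the correction, and Cbs and Psph move little.

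In IL, Dex against saline gave no member past the test either: 0 of 10 passed edgeR's test, where 0.0% of all tested genes passed. DESeq2 called 0 members and 0 of all 20015 genes. The number of members with an unadjusted p under 0.05 was also 0, against 1.06% of all tested genes. Phgdh averaged 37.3 ± 4.12 CPM in IL Dex and 37.7 ± 3.2 CPM in IL saline, a log2 fold change of −0.01 with a 95% interval of −0.3 to 0.28. Cbs had 0.09 (−0.21 to 0.39), Psat1 0.02 (−0.22 to 0.27) and Srr 0.05 (−0.2 to 0.31). Slc1a4 had −0.09 (−0.31 to 0.14), Slc7a10 0.02 (−0.32 to 0.37) and Mthfd2 −0.04 (−0.52 to 0.44). The members ran from −0.23 for Shmt2 to 0.17 for Shmt1, with a median of 0.02 against 0.006 over all tested genes. Psph was the only member whose IL Dex and IL saline libraries did not overlap, higher in IL Dex with a log2 fold change of 0.13 and an adjusted p of 1.0, where 7.78% of all tested genes did not overlap and 3.8% lay apart in this direction.

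Whether Dex acted differently in PL than in IL was tested as the interaction, the log2 fold change in PL minus that in IL. It passed for 0 of 10 members in edgeR, where 0.0% of all tested genes passed. In DESeq2 it passed for 0 members and 0 of all 20015 genes. One member, Shmt2, had an unadjusted p under 0.05, against 6.73% of all tested genes: its interaction was 0.62 ± 0.271 (SE), with a 95% interval of 0.06 to 1.19, an unadjusted p of 0.0324 and an adjusted p of 0.716. The interaction was 0.42 (−0.02 to 0.86) for Cbs and 0.33 (−0.1 to 0.76) for Phgdh. For the other members it was 0.29 for Psph, 0.26 for Slc1a4, 0.04 for Psat1, −0.03 for Shmt1, −0.12 for Srr, −0.19 for Slc7a10 and −0.36 for Mthfd2, each with a 95% interval that included 0. A difference in the response of PL and IL was thus not shown for any member. With GC correction the value for Shmt2 was 0.39 and that for Phgdh 0.07.

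**Figure D3:**
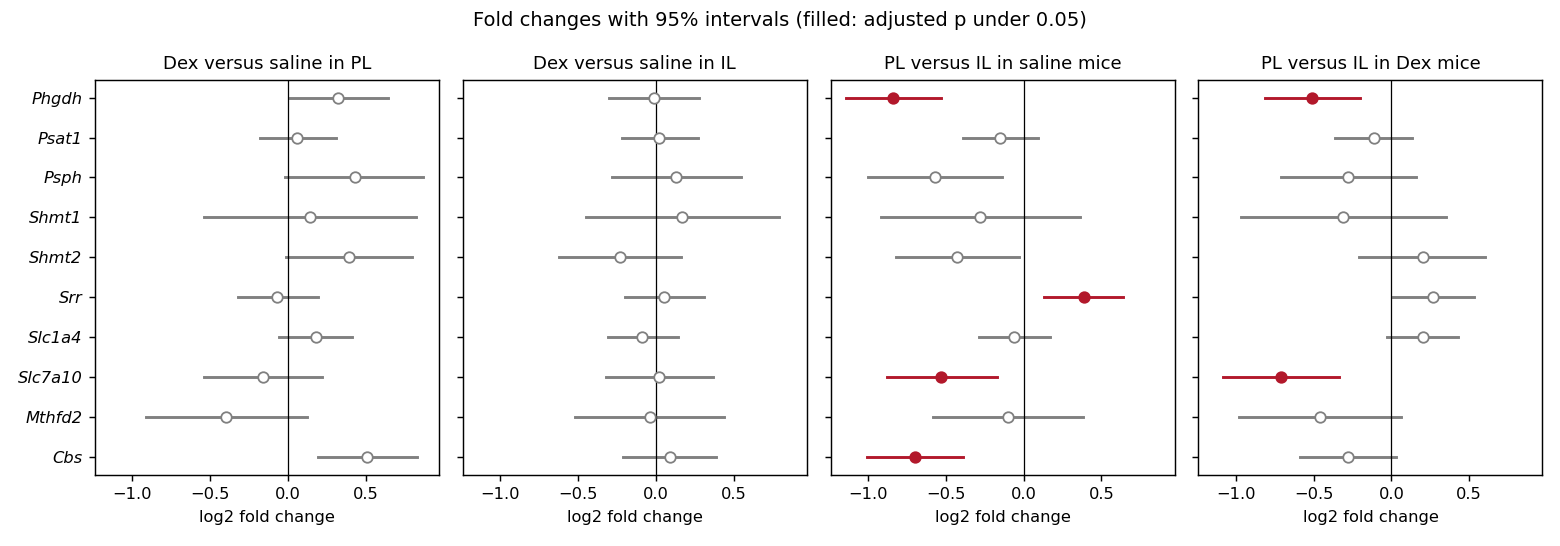
Log2 fold change (horizontal axes) of each gene with its 95% interval for Dex over saline in PL and in IL and for PL over IL in saline mice and in Dex mice; filled points have an adjusted p under 0.05. Filled points appear in the region panels only: Phgdh, Srr, Slc7a10 and Cbs in saline mice, and Phgdh and Slc7a10 in Dex mice.

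PL against IL in saline mice gave more members past the test than any other comparison made. In PL saline Phgdh, Cbs and Slc7a10 were lower and Srr was higher than in IL saline, so 4 of the 10 members passed edgeR's test, where 18.7% of all tested genes passed, 8.7% lower and 9.97% higher. Phgdh averaged 21.1 ± 0.72 CPM in PL saline and 37.7 ± 3.2 CPM in IL saline, 0.56 times the IL level, with a log2 fold change of −0.84 ± 0.146 (SE) and an adjusted p of 0.000645. Cbs averaged 17.9 ± 0.966 CPM in PL saline and 29.1 ± 2.07 CPM in IL saline, a log2 fold change of −0.70 ± 0.148 with an adjusted p of 0.00291. Slc7a10 averaged 12.4 ± 1.53 CPM in PL saline and 17.8 ± 1.38 CPM in IL saline, a log2 fold change of −0.53 ± 0.169 with an adjusted p of 0.0344. Srr averaged 58.4 ± 4.12 CPM in PL saline and 44.6 ± 1.4 CPM in IL saline, a log2 fold change of 0.39 ± 0.121 with an adjusted p of 0.0308. For each of these 4 the PL saline and IL saline libraries did not overlap, so any pairing of them gives differences in the same direction. Between libraries of the same batch number, Phgdh differed by −0.76, −0.78 and −0.95, and Cbs by −0.86, −0.63 and −0.60.

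The serine-synthesis enzymes after Phgdh did not pass in this comparison. Psph had a log2 fold change of −0.57 with an adjusted p of 0.0592 in edgeR and of 0.0484 in DESeq2, which thus called 5 members, with 4035 of the 20015 genes called. Shmt2 had −0.43 (adjusted p 0.122), Shmt1 −0.28, Psat1 −0.15, Mthfd2 −0.10 and Slc1a4 −0.06. The PL saline and IL saline libraries did not overlap for 7 members, against 40.3% of all tested genes: Phgdh, Psat1, Psph, Shmt2, Slc7a10 and Cbs were lower in PL saline, where 20.2% of all tested genes were, and Srr was higher, where 20.1% were. The members' median was −0.35, against −0.025 over all tested genes.

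Phgdh and Cbs passed under all alternatives tried in saline mice, and Slc7a10 and Srr did not. Leaving out PL saline library 1, or IL saline library 1, 2 or 3, left 2 members, Phgdh and Cbs; the calls over all 20015 genes were then 3275, 2391, 2152 and 2437, against 3737 with all libraries. Without PL saline library 2, Psph passed beside them (−0.86, adjusted p 0.0187), and without PL Dex library 2 it passed beside all 4 (adjusted p 0.0492). The calls over all 20015 genes were 1874 in the first of these fits and 4347 in the other. GC correction took Phgdh to −0.55 (adjusted p 0.00498) and Slc7a10 to −0.25 (adjusted p 0.301), and without a filter on low counts Srr had an adjusted p of 0.0608. Srr shares 1240 exon bases with Tsr1 and 126 with Smg6, and Slc7a10 shares 377 with Lrp3, on the opposite strands; the reads were counted without strand, so these levels are uncertain, while Phgdh, Cbs and Slc1a4 overlap no other gene. Psph shares 452 exon bases with Cct6a, Shmt1 184 with Smcr8 and Shmt2 32 with Ndufa4l2 in the same way.

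In Dex mice PL was again lower than IL for Slc7a10 and Phgdh, and these 2 of 10 members passed, where 7.34% of all tested genes passed and 3.54% passed in this direction. Slc7a10 averaged 11.1 ± 1.8 CPM in PL Dex and 18.0 ± 2.62 CPM in IL Dex, a log2 fold change of −0.71 ± 0.176 (SE) with an adjusted p of 0.0154. Phgdh averaged 26.4 ± 5.28 CPM in PL Dex and 37.3 ± 4.12 CPM in IL Dex, a log2 fold change of −0.51 ± 0.147 with an adjusted p of 0.0387. Cbs had −0.28 (adjusted p 0.304) and Srr 0.27 (adjusted p 0.223). Shmt2 and Slc1a4 each had 0.20, Psat1 −0.11, Psph −0.28, Shmt1 −0.31 and Mthfd2 −0.46. The PL Dex and IL Dex libraries did not overlap for 4 members, Phgdh, Psph, Slc7a10 and Mthfd2, all lower in PL Dex, against 21.6% of all tested genes, 10.8% in this direction. Between libraries of the same batch number, Phgdh differed by −0.09, −0.45 and −0.98 and Slc7a10 by −0.71, −0.42 and −0.95. Which of these members passed turned on single libraries: 0 passed without IL Dex library 3, only Phgdh without PL Dex library 1, and only Slc7a10 without PL Dex library 3, IL Dex library 2 or any one of IL saline libraries 1, 2 and 3. The calls over all genes, 1469 with all libraries, were 1173 without IL Dex library 3, 1024 and 1102 when PL Dex library 1 or 3 was left out, 793 without IL Dex library 2 and 1303 to 1357 without an IL saline library. Without PL Dex library 2, Slc7a10 and Cbs passed, Cbs at −0.46 with an adjusted p of 0.0477, and Phgdh had an adjusted p of 0.0607. The calls over all genes were then 1720. With all libraries and GC correction, Phgdh had −0.47 (adjusted p 0.0176) and Slc7a10 −0.67 (adjusted p 0.0097), where 1889 genes passed. The comparisons of regions and of treatments share libraries, so a low PL saline level enters both the region difference in saline mice and the Dex difference in PL.

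**Figure D4:**
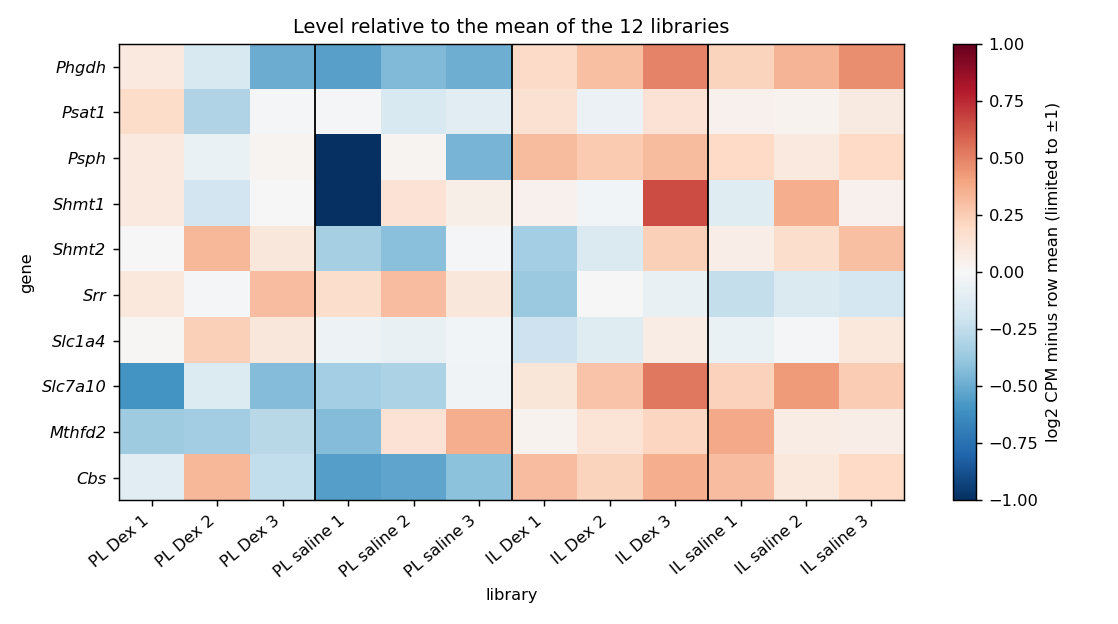
Log2 CPM of each gene (rows) in each library (columns, in the order PL Dex, PL saline, IL Dex and IL saline) relative to its average across all 12; red is above and blue below, and the colour scale stops at 1 in either direction. Phgdh, Cbs and Slc7a10 are blue to near white in PL saline and red in IL, Srr is mostly the reverse, and Phgdh in PL Dex is red in library 1 and blue in libraries 2 and 3.

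Cell type markers also differed between the regions, where 18.7% of all tested genes passed in saline mice and 7.34% in Dex mice. Of 14 astrocyte markers, the glutamate transporter gene Slc1a2 was higher in PL saline than in IL saline and 5 were lower, Gfap, Fgfr3, Slc4a4, Mlc1 and Ntsr2, with log2 fold changes of 0.34, −1.0, −0.43, −0.51, −0.50 and −0.34. In Dex mice Slc4a4 and Mlc1 were lower in PL, at −0.81 and −0.39. The summed level of all 14 was 6540 to 8470 CPM in PL Dex, 7740 to 8490 CPM in PL saline, 7230 to 7480 CPM in IL Dex and 6920 to 7460 CPM in IL saline, with no marker at 0 in all libraries. Slc1a2 made up most of that sum, averaging 5920 ± 296 CPM for PL saline and 4680 ± 215 CPM for IL saline (SD, n = 3 each). Of 10 neuron markers, 4 were higher in PL saline than in IL saline, Snap25 at 0.88, Syt1 at 0.82, Nefl at 0.70 and Stmn2 at 0.63, and 1 was lower, Gad1 at −0.62; in Dex mice 4 were higher in PL and 2 were lower. Their summed level was 7920 to 9630 CPM in PL Dex, 8340 to 9120 CPM in PL saline, 6440 to 7170 CPM in IL Dex and 6070 to 6790 CPM in IL saline, so the sums of the regions did not overlap. All 6 striatal markers had a log2 fold change below 0 in both region comparisons, and of these 4 passed in saline and 3 in Dex mice. The 6 markers of ependyma and choroid plexus summed to 2.32 to 2.86 CPM in PL Dex, 2.58 to 4.11 CPM in PL saline, 7.38 to 15.6 CPM in IL Dex and 12.5 to 16.9 CPM in IL saline. The part of these cell types in the members' region differences was not tested.

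Over the 12 libraries, whose levels also vary with region, depth and GC slope, Pearson's r between the log2 levels of 2 members ran from −0.81 for Srr and Cbs to 0.84 for Phgdh and Cbs, with a median of 0.29 over 45 pairs. After removing the 4 group means, the highest values were 0.89 for Shmt2 and Slc1a4, 0.88 for Shmt2 and Slc7a10 and 0.76 for Slc1a4 and Slc7a10, while Phgdh and Cbs had 0.24. Among 20014 other tested genes, those with named symbols and at least 5 CPM whose levels were most like Phgdh over the 12 libraries were Rftn1 (r 0.983), Dlx1as (0.971), Plxnb2 (0.962), Pnck (0.958) and Dscaml1 (0.956). Their r after removing group means was 0.90, 0.88, 0.75, 0.69 and 0.68. Dlx1as is antisense to Dlx1, so its reads are uncertain without strand. In the same order Cbs ranked 547, Slc7a10 1484, Psph 1715, Psat1 3918, Shmt1 4166, Shmt2 5725, Mthfd2 6589, Slc1a4 11238 and Srr 18231.

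Genes around the members in the pathway were followed in 7 lists. In none of the lists did a gene pass the test for Dex in PL, for Dex in IL or for the interaction. Of 8 genes for D-amino acid oxidation and other serine carriers, 7 had a log2 fold change above 0 in PL, with a median of 0.20 against −0.002 over all tested genes. The most abundant, the neutral amino acid carriers Slc38a1 and Slc38a2 and the sideroflexin gene Sfxn3, had 0.03, 0.22 and 0.23, with adjusted p of 0.898, 0.346 and 0.383. In the amino acid response list 4 of 7 tested genes lay above 0, with Asns, asparagine synthetase, at 0.06 and the transcription factor gene Atf4 at −0.21. For the other lists the median in PL lay between −0.09 and 0.10.

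Between the regions some neighbours of the members passed, where 18.7% of all tested genes passed in saline mice and 7.34% in Dex mice. Gldc, the decarboxylase of the glycine cleavage system, averaged 24.4 ± 1.66 CPM in PL saline and 39.2 ± 4.12 CPM in IL saline (SD, n = 3 each), a log2 fold change of −0.69 with an adjusted p of 0.00214. It also passed in Dex mice, at 23.0 ± 1.56 CPM in PL Dex and 43.7 ± 7.81 CPM in IL Dex, a log2 fold change of −0.92. The glycine transporter gene Slc6a9 was lower in PL saline, at −0.71, and Dld, a dehydrogenase that the glycine cleavage system shares with other complexes, was higher, at 0.61. Of 13 tested folate enzymes and carriers, 1 passed as higher in PL saline, Slc25a32, the mitochondrial folate carrier, at 0.49. Another 1, not named here, passed as lower in PL saline. Of 8 tested genes of the methionine cycle and transsulfuration, Mat2b, a subunit of methionine adenosyltransferase, was higher at 0.40. Of 9 genes that use serine for lipids, Serinc1 and Serinc3 were higher and Serinc5 was lower in PL saline, at 0.62, 0.30 and −0.47; in Dex mice Serinc1 and Serinc2 were higher in PL, at 0.37 and 1.18. Of 6 tested NMDA receptor subunits, the receptor that D-serine acts on, Grin2a was higher and Grin2c was lower in PL than in IL, at 0.58 and −0.93 for saline, and at 0.43 and −0.79 for Dex. None of the amino acid response genes or of the D-amino acid and serine carrier genes passed between the regions in edgeR.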

How the data were processed

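RNA was sequenced in 12 libraries, 3 for each of PL Dex, PL saline, IL Dex and IL saline, grouped by the sample titles, 6 of which name IL although the protocol for extraction speaks of prelimbic tissue throughout. The values deposited by the authors are raw whole-number counts of reads per gene, made, per the file headers, with featureCounts 2.0.1 on exons, in pairs and without a strand option, with annotation release 98 of GRCm38. The submitters' processing notes also name Trim Galore, HISAT2, SAMtools 1.8 and the build mm39; the coordinates in the table are those of GRCm38. Another 12 count columns matched no sample and were not used, 55154 of 55421 genes had a symbol, and all 37 mitochondrial genes were at 0.

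From these counts, edgeR 4.0.16 in R 4.3.3 kept 20015 genes by filterByExpr, scaled libraries by TMM and fitted a robust quasi-likelihood model with 1 mean per group to all 12 libraries, which left 8 residual degrees of freedom (common biological coefficient of variation 0.143). P-values are two-sided, from the quasi-likelihood F-test, adjusted by Benjamini-Hochberg over all tested genes, with a threshold of 0.05. CPM use TMM-scaled totals, and log2 CPM for correlations use a prior count of 2. The GC content is that of the longest GENCODE transcript. The alternatives were DESeq2 1.42.0, RLE scaling, no low-count filter, the replicate number as a block, a GC correction (lowess, span 0.3) with and without the block, CPM on raw totals, and each library left out. The fit was tested on simulated counts. The labels give each sample a batch equal to its sample number. The main fit did not pair libraries by this number, which served only for the same-number differences and the block. The correlation of deviations from the group means was 0.284 to 0.337 between same-numbered IL Dex and IL saline libraries. It was 0.00858 to 0.108 in PL and −0.0983 to 0.191 between same-numbered PL and IL libraries. All members were named in every comparison, and genes like Phgdh by r. List genes were named where they passed (at most 4 per list and direction) or by highest level. The 5 astrocyte markers lower in PL saline were all named, beyond that limit. Some list genes that this rule takes are not reported here. The members and lists were chosen with earlier results of these data known. The totals of 5419187 to 16530596 counts gave 12 to 71 reads per library for Shmt1, the faintest member, and 421 to 1348 for Psat1.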

Additional observations from a re-analysis of the deposited data

How the results depend on the processing

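Of the members' fold changes over the 5 comparisons, 290 kept their direction and their side of the threshold under the alternatives that kept all libraries, 3 lost and 1 gained a pass, and 6 changed direction; with one library left out these numbers were 551, 19, 4 and 26. The replicate block changed no member's call: with it, as without it, 0, 0 and 0 members passed for Dex in PL, Dex in IL and the interaction, 4 for the regions in saline mice and 2 in Dex mice. Over all 20015 genes the calls with the block were, in the same order, 3, 0, 0, 4180 and 1728. Without it they were 4, 0, 0, 3737 and 1469. Direction changed for Phgdh in IL Dex against IL saline (−0.01; 0.0019 with GC correction and 0.00315 with GC correction and block), for Shmt1 in the interaction (−0.03; 0.02 with the block and 0.00338 with GC correction and block) and for Slc1a4 between regions in saline mice (−0.06; 0.09 under both GC settings). The causes were not tested.

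With one library left out, log2 fold changes that crossed 0 ranged in PL Dex against PL saline from −0.06 to 0.19 for Psat1, −0.13 to 0.34 for Shmt1 and −0.16 to 0.02 for Srr. In IL Dex against IL saline they ranged from −0.1 to 0.06 for Phgdh, −0.01 to 0.09 for Psat1, −0.11 to 0.32 for Shmt1, −0.02 to 0.15 for Srr, −0.1 to 0.11 for Slc7a10 and −0.09 to 0.07 for Mthfd2. In the interaction they ranged from −0.08 to 0.16 for Psat1 and −0.3 to 0.25 for Shmt1. Between regions, Mthfd2 in saline mice ranged from −0.28 to 0.08 and Psat1 in Dex mice from −0.23 to 0.01. The number of members that passed ranged from 0 to 1 for Dex in PL, 2 to 5 between regions in saline mice and 0 to 2 in Dex mice. The calls over all 20015 genes ranged in these fits from 0 to 1528, from 1874 to 4639 and from 793 to 1720.

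Levels on raw totals moved by more than 1 SD for Phgdh in PL saline (20.2 CPM), Psat1 in IL saline (81.2), Psph in IL Dex (12.6), Srr in IL saline (46.3), Slc1a4 in PL saline (55.5) and Mthfd2 in PL Dex (4.43). Over all genes, Dex in PL gave 4 calls in edgeR, 123 in DESeq2, 193 without the low-count filter, 0 with RLE scaling, 1 with GC correction and 0 to 1528 with one library left out. The interaction gave 0 calls, 4 without that filter and 169 without PL Dex library 3. The region difference in Dex mice gave 1469 calls and 2359 with GC correction and block. Low counts limit the precision for Shmt1, Mthfd2 and Psph.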
